A study of Mus musculus with 12 samples.

Results

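Osteoclasts are the cells that dissolve bone, and 10 genes of their resorption and fusion machinery were followed in RNA from mouse tibia shafts. The genes were *Acp5*, *Ctsk*, *Mmp9*, *Calcr*, *Oscar*, *Dcstamp*, *Ocstamp*, *Atp6v0d2*, *Clcn7* and *Tcirg1*. They were taken by symbol from the count matrix, in which each of the 10 matched a single row of 47069. RNA was sequenced from 12 male mice aged 8 weeks, with n = 4 mice in each of the groups WT, Jrt;Sost-het and Jrt;Sost-ko. Tibia shafts had been flushed of marrow before extraction. Jrt;Sost-het mice carried the dominant *Col1a1* Jrt allele (Col1a1Jrt/+), a splice-site variant that models severe osteogenesis imperfecta. Their *Sost* genotype is not in the labels and was taken from the paper as Sost+/-. Jrt;Sost-ko mice carried the same Jrt allele and no functional *Sost* in any cell (Sost-/-). WT mice carried neither allele and came from a parallel colony of mixed FVB/C57BL6 background, so that colony and genotype cannot be told apart in comparisons with WT. The 3 comparisons addressed whether the osteoclast genes differed with loss of *Sost* on the Jrt background, and whether either Jrt genotype differed from WT. Jrt;Sost-het mice differ from WT mice in the Jrt allele, in 1 *Sost* allele and in colony, which cannot be told apart. Mice are numbered from 1 to 4 within a group, and the numbers pair no mice.

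An osteoclast forms by fusion of macrophage-lineage precursors that have received the signals M-CSF and RANKL. It seals off a patch of bone, pumps protons into the sealed space through a vacuolar ATPase (V-ATPase), lets chloride follow through a chloride–proton exchanger, and secretes proteases that digest the exposed collagen. Sclerostin, the product of *Sost*, is made by osteocytes and inhibits Wnt signalling. Wnt signalling in bone cells is known to raise osteoprotegerin, the decoy receptor for RANKL, which limits osteoclast formation.

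The stretch upstream of the gene is shown for 5 of the genes, because *Acp5*, *Ctsk* and *Oscar* varied together from mouse to mouse whereas *Clcn7* followed them less closely and *Tcirg1* hardly. Each is the 250 bases before an annotated start, 5′ to 3′ on the strand of the gene, from RefSeq in the build GRCm38.p6. RefSeq windows were found for 6 of the 10 genes (*Acp5*, *Ctsk*, *Calcr*, *Oscar*, *Clcn7* and *Tcirg1*). Capitals mark matches on either strand to 5 motifs of factors known from osteoclasts, which were TGANTCA (AP-1), CACGTG and CATGTG (E-boxes of the MITF family), GAGGAA (PU.1) and GGAAA (NFAT). The last of these overlaps GAGGAA where a further A follows.
Ctsk, chr3:95498960-95499209, plus strand: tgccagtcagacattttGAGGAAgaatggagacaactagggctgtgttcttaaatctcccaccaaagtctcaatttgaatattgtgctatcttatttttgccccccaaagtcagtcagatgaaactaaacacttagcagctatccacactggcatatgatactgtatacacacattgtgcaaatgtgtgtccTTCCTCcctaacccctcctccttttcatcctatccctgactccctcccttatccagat
Acp5, chr9:22130599-22130848, minus strand: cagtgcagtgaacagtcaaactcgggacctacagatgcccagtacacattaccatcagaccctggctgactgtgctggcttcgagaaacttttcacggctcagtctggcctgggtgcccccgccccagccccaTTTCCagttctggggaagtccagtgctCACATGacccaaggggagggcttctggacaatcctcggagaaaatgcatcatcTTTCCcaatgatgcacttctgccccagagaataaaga
Oscar, chr7:3616158-3616407, minus strand: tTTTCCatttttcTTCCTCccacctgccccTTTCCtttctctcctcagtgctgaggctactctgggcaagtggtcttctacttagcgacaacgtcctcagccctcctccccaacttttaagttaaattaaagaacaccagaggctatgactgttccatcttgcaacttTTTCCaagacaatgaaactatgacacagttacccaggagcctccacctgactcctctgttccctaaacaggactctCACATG
Clcn7, chr17:25133141-25133390, plus strand: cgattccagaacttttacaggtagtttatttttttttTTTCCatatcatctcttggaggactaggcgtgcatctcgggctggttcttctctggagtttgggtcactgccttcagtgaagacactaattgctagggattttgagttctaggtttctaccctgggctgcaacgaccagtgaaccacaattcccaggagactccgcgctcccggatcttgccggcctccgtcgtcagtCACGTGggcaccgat
Tcirg1, chr19:3907134-3907383, minus strand: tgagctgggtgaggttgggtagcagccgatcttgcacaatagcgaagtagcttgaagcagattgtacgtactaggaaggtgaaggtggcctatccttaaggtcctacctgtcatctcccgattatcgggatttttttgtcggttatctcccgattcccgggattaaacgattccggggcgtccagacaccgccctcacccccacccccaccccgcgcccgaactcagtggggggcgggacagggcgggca
The *Ctsk* window held 2 matches to the PU.1 motif, at GAGGAA and its complement TTCCTC. The *Oscar* window held 1 PU.1 match, 3 NFAT matches and 1 CATGTG, which lay at the very end of the window, read there as CACATG. The *Acp5* window, which belongs to the most downstream of its 3 annotated starts and lies inside the gene, held 1 CATGTG and 2 NFAT matches. It is the one with the most matches, and the other 2 *Acp5* windows held 1 NFAT match each and none to the other motifs. The *Clcn7* window shown, the more upstream of 2, held CACGTG and 1 NFAT match, and the other *Clcn7* window held 1 CATGTG. The *Tcirg1* window shown, the most upstream of 3, held no match to any of the 5 motifs. Of the other 2 *Tcirg1* windows, 1, which overlaps the window shown, held 1 PU.1 match and 1 held 2 NFAT matches. Over all 12 windows of the 6 genes, 0 held TGANTCA, 1 held CACGTG, 3 held CATGTG, 3 held GAGGAA and 7 held GGAAA. Among 32851 RefSeq windows of the same length the shares were 6.75%, 6.02%, 12.3%, 23.3% and 55.6%. The matches are a description of these letters and not of binding. The windows shown were not picked by a common rule, and a link between the matches and the variation between mice was not tested.

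Libraries held between 24366061 and 44418863 counts on genes, and the 10 genes took between 0.183% and 0.341% of them. Levels are in CPM, which sets the count of a gene against the size of its library, after TMM normalisation over the 12 libraries. *Sost* was measured at 26.8 to 70.4 CPM in Jrt;Sost-het, 0.326 to 1.28 CPM in Jrt;Sost-ko and 28.5 to 72.3 CPM in WT mice. The level was low in each mouse labelled Sost-/-, and the Jrt;Sost-het and WT mice overlapped. Epidermal transcripts (8 genes) summed to 129 CPM in WT mouse 3 and 592 CPM in WT mouse 4, against 8.33 to 10.6 CPM in the other 10 mice, and comparisons with WT are therefore also given without these 2 mice. Cartilage markers (8 genes) summed to 3649 CPM in Jrt;Sost-het mouse 1 and 2903 CPM in WT mouse 4, and to between 84.6 and 880 CPM in the other mice. Skeletal muscle markers (12 genes) were the most uneven of these. They summed to 29.6 CPM in Jrt;Sost-ko mouse 4 and 219 CPM in WT mouse 2. The sums were 27719 CPM in Jrt;Sost-het mouse 4 and 29510 CPM in WT mouse 4, and between 2089 and 12128 CPM in the other mice. Marrow cell transcripts remained after flushing, with 10 neutrophil genes summing to between 16457 and 30607 CPM.

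No gene of the resorption and fusion machinery was called different between any 2 groups. The test was edgeR's quasi-likelihood test with Benjamini–Hochberg adjustment over all genes tested, called at an adjusted p under 0.05. All 10 genes had enough counts to be tested in each comparison. In Jrt;Sost-ko relative to Jrt;Sost-het mice, 0 of 10 were called, where 0.00597% of 16739 genes were. In Jrt;Sost-het against WT 0 of 10 were called, where 0% of 16775 genes were. In Jrt;Sost-ko against WT 0 of 10 were called, where 0.00583% of 17155 genes were. At an unadjusted p under 0.05 the count was also 0 of 10 in each comparison, where 5.02%, 2.14% and 3.89% of all genes passed. DESeq2 and limma-voom called 0 of 10 as well. The groups overlapped in CPM for every one of the 10 genes in each comparison, where 3.2%, 1.54% and 2.4% of all genes did not overlap. In whole tissue, fewer osteoclasts and less RNA per osteoclast cannot be told apart.

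**Figure D1:**
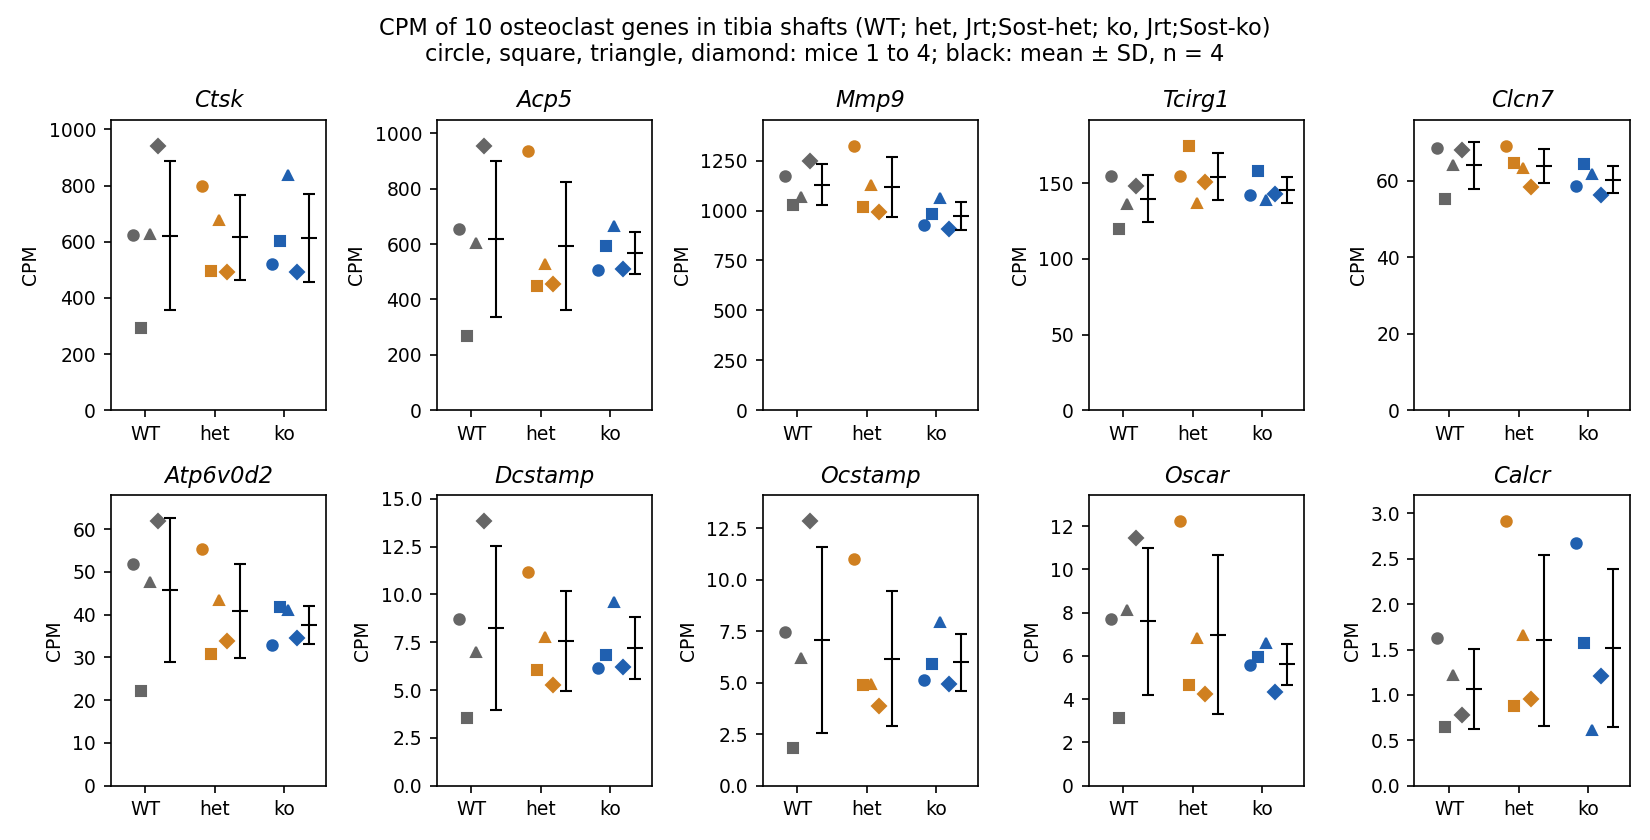
CPM of each gene (y axes, linear from 0) in the mice of each group (x axes), with symbols for mice 1 to 4 and black bars for the mean ± SD, n = 4. The groups overlap in every panel, and WT mouse 2 is the lowest symbol in 8 of the 10 panels.

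The matrix-degrading enzymes were the most abundant of the 10 genes. *Ctsk* encodes cathepsin K, the main collagenolytic protease of the osteoclast, and is annotated in GRCm38 at chromosome 3, 95499256 to 95509362, plus strand (ENSMUSG00000028111). It was measured at 800.2, 495, 677 and 491 CPM in Jrt;Sost-het mice 1 to 4, at 519, 603, 837 and 493 CPM in Jrt;Sost-ko mice and at 623, 294, 629 and 941 CPM in WT mice. The means were 616 ± 150.3, 613 ± 157 and 622 ± 264 CPM (SD, n = 4), so that the group means lay far closer together than the mice within any group. WT mouse 2 was lowest and WT mouse 4 highest, a 3.2-fold range inside the WT group. The log2 difference of Jrt;Sost-ko from Jrt;Sost-het was -0.0048 (SE 0.21), with a 95% confidence interval of the fold from 0.716 to 1.39 (edgeR adjusted p = 0.998).

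*Acp5* encodes tartrate-resistant acid phosphatase, the enzyme used to stain osteoclasts (ENSMUSG00000001348, chromosome 9, 22126727 to 22135711, minus strand). Its levels were 935, 450.1, 529 and 457 CPM in Jrt;Sost-het mice 1 to 4, 507, 591, 664 and 509.7 CPM in Jrt;Sost-ko mice and 655, 266, 605 and 954 CPM in WT mice. Jrt;Sost-het mouse 1 stood well above the other 3 mice of its group, and the WT mice spanned 3.58-fold. The Jrt;Sost-ko mice were closer to each other, with a CV of 13.2% against 39% in Jrt;Sost-het and 45.5% in WT mice, a difference in spread that was not tested. The log2 difference of Jrt;Sost-ko from Jrt;Sost-het was -0.06 (SE 0.23, edgeR adjusted p = 0.967). An annotated gene on the opposite strand, 6530413G14Rik, overlaps *Acp5* and is not used here. The strand setting of the counting is not given in the sources used here, so reads of both would be counted together if strand was ignored.

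*Mmp9* encodes gelatinase B, a metalloprotease that osteoclasts share with neutrophils (ENSMUSG00000017737, chromosome 2, 164940780 to 164955850, plus strand). The values were 1323, 1019.9, 1129 and 993 CPM in Jrt;Sost-het mice 1 to 4, 928, 982, 1065 and 910.1 CPM in Jrt;Sost-ko mice and 1175, 1029.7, 1066 and 1250.2 CPM in WT mice. The Jrt;Sost-ko mean of 971 ± 69.7 CPM was the lowest of the 3 (1116 ± 150.1 in Jrt;Sost-het and 1130.2 ± 101 in WT, SD, n = 4), but Jrt;Sost-ko mouse 3 lay above the lowest mice of both other groups. The log2 differences from Jrt;Sost-het and from WT were -0.20 (SE 0.11) and -0.21 (SE 0.10), with unadjusted p of 0.0963 and 0.0671 and adjusted p of 0.901 and 0.9996 in edgeR. These 2 comparisons share the Jrt;Sost-ko mice. The log2 CPM of *Mmp9* and the mean log2 CPM of the neutrophil markers had r = -0.29 over the 12 mice. The part of neutrophils in the reads of *Mmp9* was not tested.

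The acid-secretion genes differed in how much they varied. *Atp6v0d2* encodes the d2 subunit of the V-ATPase, a form enriched in osteoclasts and known to be needed for the fusion of their precursors (ENSMUSG00000028238, chromosome 4, 19876841 to 19922605, minus strand). It was measured at 55.3, 30.7, 43.4 and 33.8 CPM in Jrt;Sost-het mice 1 to 4, at 33, 41.7, 41.2 and 34.5 CPM in Jrt;Sost-ko mice and at 51.8, 22.2, 47.6 and 61.8 CPM in WT mice. WT mouse 2 was again lowest and WT mouse 4 highest, and the Jrt;Sost-ko mice all fell within the range of the other groups. The log2 differences of Jrt;Sost-ko were -0.12 (SE 0.18) from Jrt;Sost-het and -0.28 (SE 0.27) from WT, with edgeR adjusted p of 0.931 and 0.9996.

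*Tcirg1* encodes the a3 subunit, which directs the V-ATPase to the ruffled border of the osteoclast (ENSMUSG00000001750, chromosome 19, 3896050 to 3907133, minus strand). Its levels were 155, 175, 137 and 151 CPM in Jrt;Sost-het mice 1 to 4, 143, 158, 139 and 143 CPM in Jrt;Sost-ko mice and 155, 119.6, 136 and 148 CPM in WT mice. Its highest mouse was Jrt;Sost-het mouse 2, which was near the low end for *Acp5* and *Ctsk*. *Clcn7* encodes the ClC-7 chloride–proton exchanger that works alongside the pump (ENSMUSG00000036636, chromosome 17, 25133391 to 25162104, plus strand). The values were 69.1, 64.5, 63.3 and 58.3 CPM in Jrt;Sost-het mice 1 to 4, 58.6, 64.5, 61.7 and 56.3 CPM in Jrt;Sost-ko mice and 68.6, 55.2, 64 and 68.2 CPM in WT mice. Over all 12 mice *Clcn7* spanned 1.25-fold and *Tcirg1* 1.46-fold, where *Atp6v0d2* spanned 2.78-fold. Their confidence intervals were the narrowest of the 10 genes. The Jrt;Sost-ko to Jrt;Sost-het ratio was a fold of 0.945 for *Clcn7* (95% confidence interval 0.851 to 1.05) and 0.944 for *Tcirg1* (0.833 to 1.07), with edgeR adjusted p of 0.901 and 0.904.

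The fusion genes were low and variable. *Dcstamp* encodes DC-STAMP, a membrane protein without which precursors do not fuse (ENSMUSG00000022303, chromosome 15, 39745930 to 39760938, plus strand). It was measured at 11.2, 6.07, 7.75 and 5.25 CPM in Jrt;Sost-het mice 1 to 4, at 6.18, 6.81, 9.6 and 6.2 CPM in Jrt;Sost-ko mice and at 8.73, 3.52, 6.97 and 13.8 CPM in WT mice. *Ocstamp* encodes OC-STAMP, a related protein also required for fusion (ENSMUSG00000027670, chromosome 2, 165393760 to 165400405, minus strand). Its levels were 11, 4.88, 4.93 and 3.85 CPM in Jrt;Sost-het mice 1 to 4, 5.14, 5.92, 7.94 and 4.92 CPM in Jrt;Sost-ko mice and 7.43, 1.85, 6.19 and 12.8 CPM in WT mice. *Ocstamp* had the widest range of the 10 genes, 6.95-fold, from 54 counts in WT mouse 2 to 463 counts in WT mouse 4. In both genes Jrt;Sost-het mouse 1 and WT mouse 4 were the highest and WT mouse 2 was the lowest. The log2 differences of Jrt;Sost-ko from Jrt;Sost-het were -0.07 (SE 0.25) for *Dcstamp* and -0.04 (SE 0.33) for *Ocstamp*, with edgeR adjusted p of 0.965 and 0.985.

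The receptors were the least abundant with the fusion genes. *Oscar* encodes an immunoglobulin-like receptor that binds collagen and costimulates osteoclast formation (ENSMUSG00000054594, chromosome 7, 3609813 to 3616157, minus strand). The values were 12.2, 4.64, 6.81 and 4.22 CPM in Jrt;Sost-het mice 1 to 4, 5.57, 5.95, 6.58 and 4.34 CPM in Jrt;Sost-ko mice and 7.71, 3.14, 8.1 and 11.4 CPM in WT mice. In the 2 comparisons of Jrt;Sost-ko mice its estimates were the lowest of the 10 genes but were not called, with a log2 difference of Jrt;Sost-ko of -0.31 (SE 0.32) from Jrt;Sost-het and of -0.43 (SE 0.34) from WT (edgeR adjusted p of 0.904 and 0.9996). Without Jrt;Sost-het mouse 1 the first of these was 0.0998. *Calcr* encodes the calcitonin receptor, through which calcitonin stops resorption (ENSMUSG00000023964, chromosome 6, 3685680 to 3764714, minus strand). It was measured at 2.91, 0.881, 1.66 and 0.952 CPM in Jrt;Sost-het mice 1 to 4, at 2.68, 1.58, 0.615 and 1.21 CPM in Jrt;Sost-ko mice and at 1.62, 0.649, 1.21 and 0.775 CPM in WT mice. These levels rest on 19 to 77 counts per mouse, and the mice of a group overlapped with those of both others. The log2 differences from WT were 0.58 (SE 0.44) in Jrt;Sost-het and 0.50 (SE 0.46) in Jrt;Sost-ko mice, against the same WT mice (edgeR adjusted p of 1 and 0.9996). The 95% confidence interval of the fold for Jrt;Sost-het against WT ran from 0.744 to 3.02, and the CV between mice of a group was 41.6% to 58.8%.

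**Figure D2:**
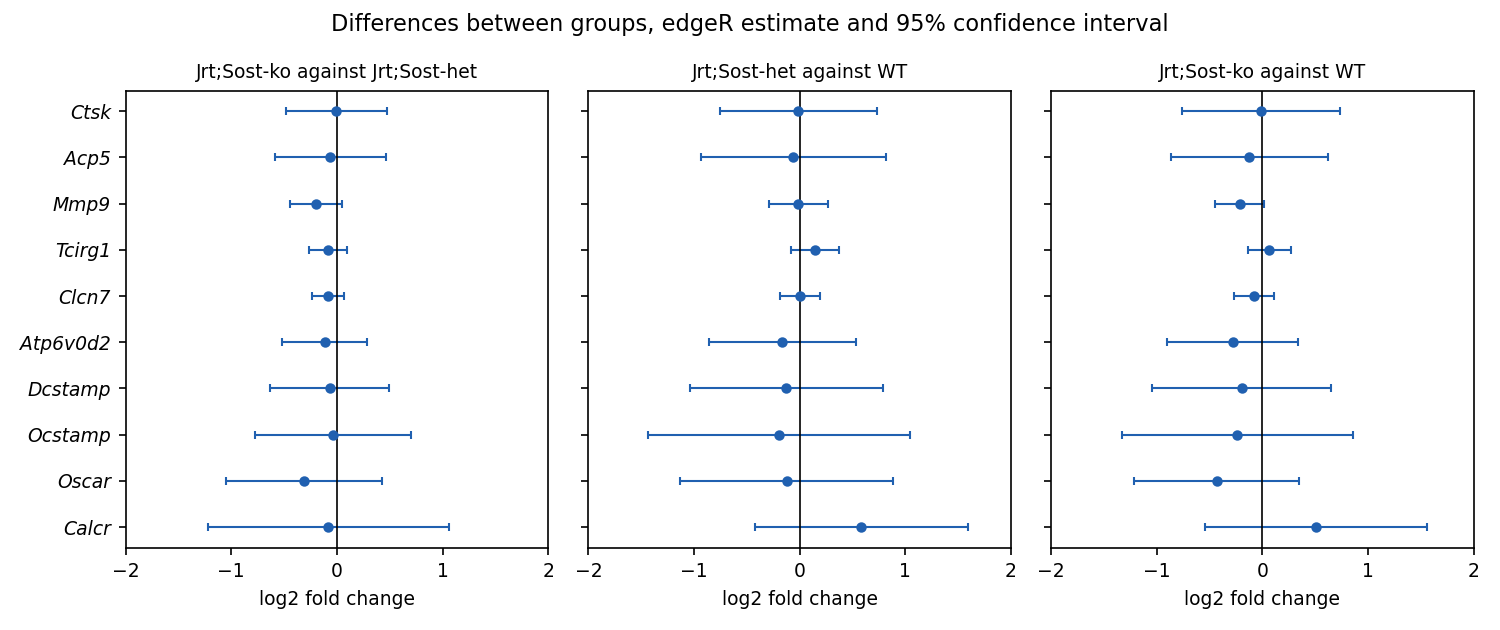
Log2 fold change of each gene (x axes) in the 3 comparisons, as the edgeR estimate (points) with its 95% confidence interval (bars). Every interval includes 0, the narrowest belong to *Clcn7* and *Tcirg1*, and the widest belong to *Calcr* and *Ocstamp*.

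In Jrt;Sost-ko relative to Jrt;Sost-het mice the estimates of all 10 genes were below 0, with a median log2 difference of -0.08, where 49.6% of all genes tested were below 0 and their median was 0.0013. Without Jrt;Sost-het mouse 1 the median of the 10 genes was 0.12. In the same comparison 8 of 8 cartilage markers (median -1.81), 12 of 12 muscle markers (-0.99) and 6 of 6 endothelial markers (-0.13) had estimates below 0, whereas 7 of 8 osteoblast markers (0.31) and 6 of 6 osteocyte markers (0.33) had estimates above 0. The part of these tissues in the estimates of the 10 genes was not tested. In Jrt;Sost-het against WT 3 of 10 estimates were above 0, with a median of -0.04 (48.7% of all genes below 0, median 0.0036), and the median was 0.20 without WT mouse 4 and 0.35 without WT mice 3 and 4. In Jrt;Sost-ko against WT 2 of 10 were above 0, with a median of -0.16 (50.9% of all genes below 0, median -0.0030), and it was 0.13 without WT mouse 4 and 0.17 without WT mice 3 and 4. The part of epidermal tissue in these differences was not tested.

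Set per kilobase of exon so that genes can be ordered by level, the median over the 12 mice was 406 CPM per kb for *Ctsk*, 296 for *Mmp9*, 276 for *Acp5*, 31.6 for *Tcirg1*, 15.3 for *Atp6v0d2* and 12 for *Clcn7*. The receptors and fusion genes followed with 3.39 CPM per kb for *Oscar*, 2.59 for *Dcstamp*, 1.51 for *Ocstamp* and 0.309 for *Calcr*. The order of *Mmp9* and *Acp5* was not stable, with *Mmp9* above *Acp5* in 8 of 12 mice. *Ctsk* was above *Mmp9* in 11 mice, *Atp6v0d2* above *Clcn7* in 10 and *Oscar* above *Dcstamp* in 11, and each other neighbour in this order held in all 12 mice. The 3 enzymes did not fall below 131 CPM per kb in any mouse, and the other 7 genes did not exceed 37.9 CPM per kb.

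The same few mice were highest or lowest for most of the genes. Jrt;Sost-het mouse 1 was the highest of the 12 mice for 4 genes (*Mmp9*, *Calcr*, *Oscar* and *Clcn7*) and WT mouse 4 for 5 (*Acp5*, *Ctsk*, *Dcstamp*, *Ocstamp* and *Atp6v0d2*). WT mouse 2 was the lowest for 8 genes, all but *Mmp9* and *Calcr*. The summed level of the 10 genes ran from 1797 CPM in WT mouse 2 to 3463 CPM in WT mouse 4, both within the same group. The mean z-score of the 10 genes (log2 CPM, each gene scaled to its SD over the 12 mice) was 1.33 in Jrt;Sost-het mouse 1, 1.12 in WT mouse 4 and -1.77 in WT mouse 2. It lay between -0.62 and 0.63 in the other 9 mice.

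**Figure D3:**
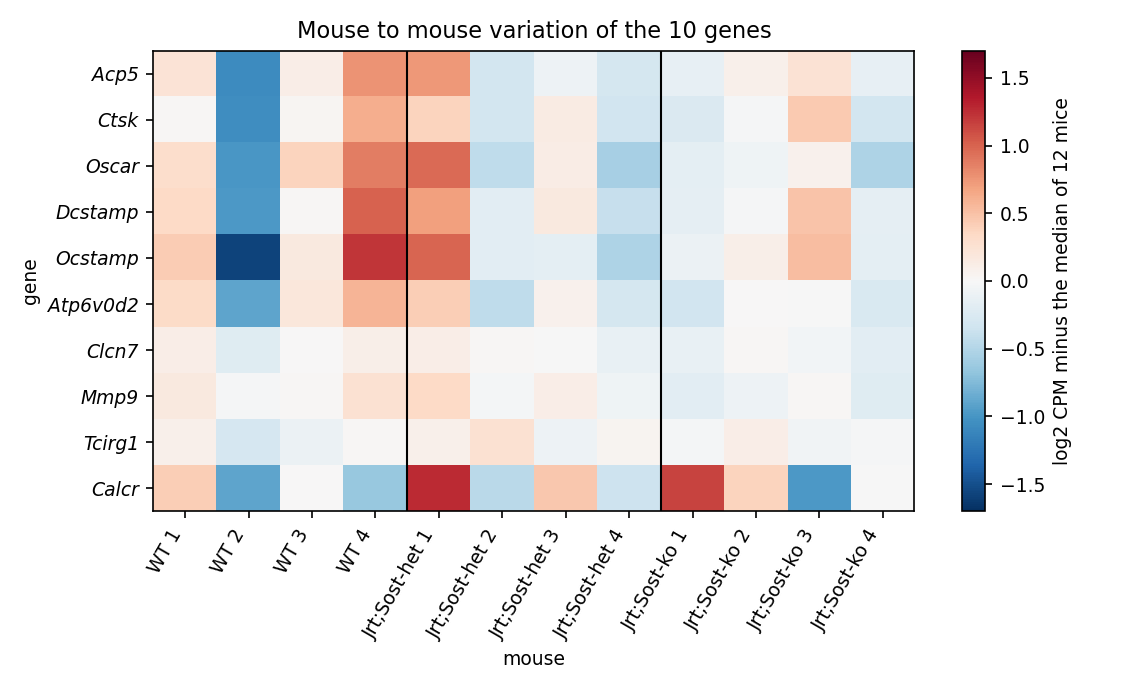
Log2 CPM of each gene (y axis) minus its median over the 12 mice, as colour, for each mouse (x axis). Most genes are high in Jrt;Sost-het mouse 1 and WT mouse 4 and low in WT mouse 2, whereas *Tcirg1* and *Clcn7* vary little.

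A set of 6 genes followed this pattern closely. *Acp5*, *Ctsk*, *Oscar*, *Dcstamp*, *Ocstamp* and *Atp6v0d2* were grouped after their values had been seen. Across the 12 mice the 15 pairs among them had Pearson's r of log2 CPM from 0.888 to 0.988 (median 0.943) and Spearman's rho from 0.811 to 0.972. The closest pair was *Acp5* with *Ocstamp*, a phosphatase and a fusion protein, and the loosest was *Ctsk* with *Oscar*. With the group means removed r ran from 0.928 to 0.989. Without Jrt;Sost-het mouse 1, WT mouse 2 and WT mouse 4 it ran from 0.672 to 0.935 over the 9 mice left. Values of 1 mouse share a library and a dissection, and these correlations are given as a description.

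The other 4 genes followed the 6 less closely. *Clcn7* had r from 0.752 to 0.860 with them, over its far narrower range, and *Mmp9* had r from 0.621 to 0.804. With the group means removed these ran from 0.823 to 0.881 and from 0.790 to 0.875. Without the 3 extreme mice they were 0.429 to 0.697 for *Clcn7* and 0.503 to 0.759 for *Mmp9*. Both ranges then overlapped the 0.672 to 0.935 among the 6 genes. *Tcirg1* had r from 0.268 to 0.471, and its rho of -0.014 to 0.147 shows that the ranks of the mice hardly matched. Without the 3 extreme mice its r with the 6 genes was between -0.47 and -0.17. *Calcr* had r from 0.184 to 0.393, on counts low enough for sampling to matter. Within the V-ATPase, the d2 subunit was thus among the 6 closely related genes and the a3 subunit was not, a difference between correlations that was not tested.

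**Figure D4:**
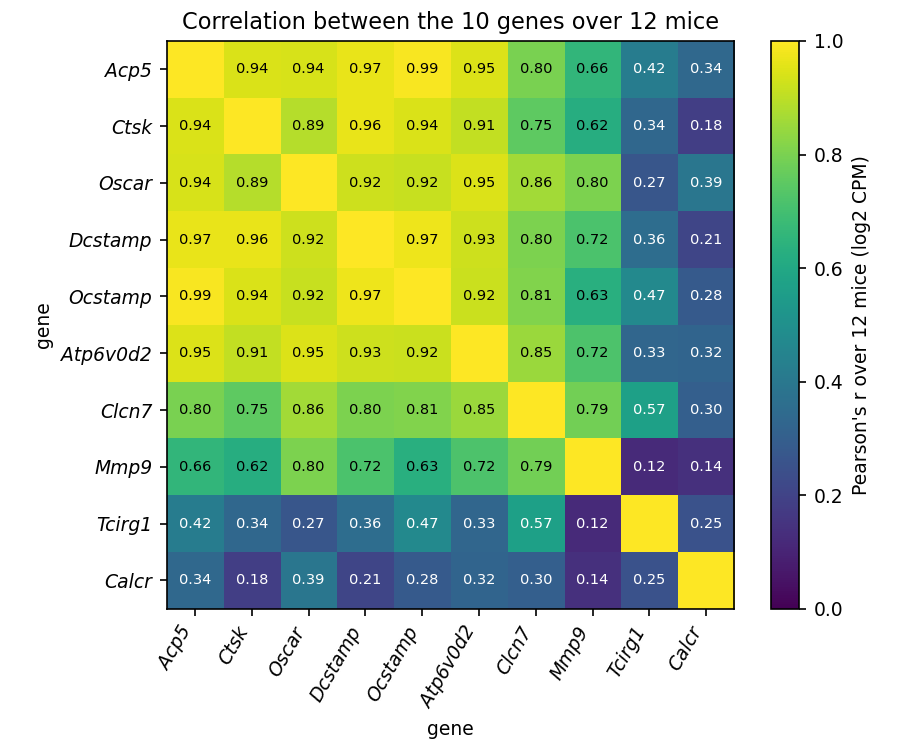
Pearson's r over the 12 mice between the log2 CPM of each pair of the 10 genes, as colour. The 6 genes *Acp5*, *Ctsk*, *Oscar*, *Dcstamp*, *Ocstamp* and *Atp6v0d2* form a block with r of 0.888 or more, and *Tcirg1* and *Calcr* stand apart.

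Both V-ATPase subunits have paralogs that are used in many cell types. The shares of *Atp6v0d2* and of *Tcirg1* were therefore computed within each library from counts per kb of exon. They are shares in whole tissue, and the part of cells other than osteoclasts in them was not tested. *Atp6v0d2* made up 27.1%, 17.2%, 21.4% and 19.5% of the d subunit (*Atp6v0d1* plus *Atp6v0d2*) in Jrt;Sost-het mice 1 to 4. The share was 17.9%, 21%, 22.4% and 17.6% in Jrt;Sost-ko mice and 25.2%, 12%, 23.8% and 31.5% in WT mice. The group means of 21.3 ± 4.27%, 19.7 ± 2.39% and 23.1 ± 8.12% (SD, n = 4) were not separated by the exact test, with two-sided exact permutation p of 0.6 for Jrt;Sost-ko relative to Jrt;Sost-het, 0.714 for Jrt;Sost-het against WT and 0.457 for Jrt;Sost-ko against WT. The adjusted p over the 6 tests of shares was 0.743 for each. The ubiquitous partner *Atp6v0d1* was lowest in WT mouse 4 at 88.8 CPM and highest in WT mouse 2 at 107 CPM, the reverse of *Atp6v0d2*.

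*Tcirg1* made up 54.2%, 56.3%, 52.7% and 55.1% of the a subunit (*Atp6v0a1*, *Atp6v0a2* and *Tcirg1* together) in Jrt;Sost-het mice 1 to 4, 52.3%, 54.1%, 52.2% and 53.5% in Jrt;Sost-ko mice and 52.9%, 46.9%, 52.7% and 55.4% in WT mice. In every mouse but WT mouse 2, *Tcirg1* therefore had more counts per kb than both paralogs combined. The exact permutation p was 0.114 for Jrt;Sost-ko relative to Jrt;Sost-het, 0.257 for Jrt;Sost-het against WT and 0.743 for Jrt;Sost-ko against WT (adjusted 0.686, 0.743 and 0.743). The smallest p that 4 mice against 4 allow is 0.0286. The d2 share spanned 12% to 31.5% over the 12 mice and the a3 share 46.9% to 56.3%.

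**Figure D5:**
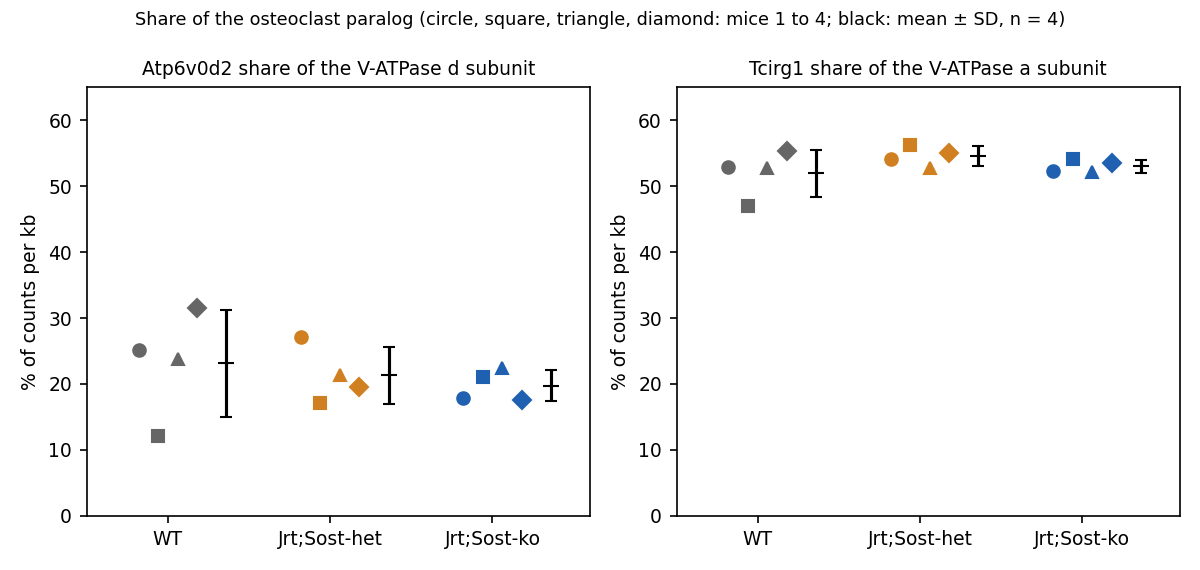
Share of *Atp6v0d2* in the d subunit and of *Tcirg1* in the a subunit (y axes, % of counts per kb of exon, from 0) in the mice of each group (x axes), with symbols for mice 1 to 4 and black bars for the mean ± SD, n = 4. The d2 share ranges from 12% in WT mouse 2 to 31.5% in WT mouse 4, and the a3 share lies above 50% in every mouse but WT mouse 2.

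The genes most like the 10 were looked for among 14667 genes with a mean of at least 1 CPM, by Pearson's r over the 12 mice between log2 CPM and the mean z-score of the 10 genes. The closest was *Slc9b2* (r = 0.969), which encodes a sodium–proton antiporter of osteoclasts and ran from 9.91 CPM in WT mouse 2 to 35.3 CPM in WT mouse 4. It was followed by *Slc37a2* (0.967), which encodes a sugar-phosphate transporter family member of osteoclast lysosomes, *Slc4a2* (0.960), which encodes the chloride–bicarbonate exchanger that supplies chloride for acid secretion, and *Mmp13* (0.956), which encodes collagenase 3, made mainly by osteoblasts and hypertrophic chondrocytes. Further genes were *Fblim1* (0.934), *Adcy3* (0.934), *Shtn1* (0.933), *C77080* (0.930) and *Podnl1* (0.927). The median r over the 14667 genes was -0.03, and 0.709% had r over 0.8. Without WT mouse 2 and Jrt;Sost-het mouse 1, whose scores were farthest from the median, r was 0.936 for *Slc9b2* and 0.8285 for *Adcy3*, the highest and the lowest of the genes named.

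Single genes had partners of their own. *Ctsk* was most like *Ckb*, brain-type creatine kinase (r = 0.982), and *Sdc1*, syndecan-1 (0.981). *Oscar* and *Dcstamp* were both close to *Siglec15*, a sialic-acid-binding receptor of osteoclasts (0.950 and 0.966), and to *Slc37a2* (0.952 and 0.969). *Acp5* and *Ocstamp* were both most like *Slc9b2* (0.981 and 0.974), and *Atp6v0d2* was most like *Slc37a2* (0.972). *Clcn7* was most like *Snx10* (0.922), which encodes a sorting nexin needed for the ruffled border. *Tcirg1* was most like *Slc5a6* (0.922), a vitamin transporter, *Mmp9* was most like *Zswim4* (0.870) and *Calcr* was most like *Tnfsf8* (0.908), none of which is in a list of osteoclast genes used here. With 12 mice and 14667 genes, high values of r can be found for any gene, and these are given by rank only.

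Other genes of the pathway were read from lists. The lists were chosen with earlier results of these data known, so the shares of their genes are a description only. Of 12 further resorption genes, 5 had r over 0.8 with the score of the 10 genes, 41.7% against 0.709% of all genes. These were *Slc9b2*, *Slc37a2*, *Slc4a2*, *Snx10* (0.881) and *Itgav* (0.858), the αv chain of the vitronectin receptor. *Slc9b2*, *Slc37a2* and *Slc4a2* are the same genes that were closest in the search over all genes. *Itgb3*, the β3 chain of the same receptor, which platelets and their precursors also make, had r = -0.30. *Car2*, carbonic anhydrase 2, which supplies protons to the pump and is abundant in red cells, had r = -0.24. *Plekhm1* (0.326), *Ostm1* (0.044) and *Src* (0.442), which act in vesicle traffic, in the ClC-7 complex and in the sealing zone, followed the score weakly. Of 16 further V-ATPase subunits 0 had r over 0.8, and the nearest was *Atp6v1a* (0.789), the catalytic subunit.

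Of 16 genes of osteoclast differentiation, 4 had r over 0.8. These were *Tnfrsf11a* (0.917), the receptor RANK, *Csf1r* (0.834), the M-CSF receptor, *Prdm1* (0.815), a transcriptional repressor, and *Nfatc1* (0.805), the transcription factor that switches on *Acp5*, *Ctsk* and *Oscar*. *Mitf* had r = 0.643. The adaptors *Tyrobp* (-0.60) and *Fcer1g* (-0.72), which osteoclasts share with myeloid cells of the marrow, and *Trem2* (-0.32) had negative values. So did *Spi1* (-0.60), which encodes PU.1, and *Syk* (-0.295). *Irf8*, a factor that holds back osteoclast formation and is made by other myeloid cells, had r = -0.81. *Tnfsf11*, which encodes RANKL, had r = 0.582. Of the 16 genes, 10 had r above 0. The part of other myeloid cells in these values was not tested.

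None of these lists held a gene called by edgeR in any of the 3 comparisons. In Jrt;Sost-ko relative to Jrt;Sost-het mice, 5 of 12 resorption genes, 8 of 16 V-ATPase subunits and 7 of 16 differentiation genes had estimates above 0, with medians of -0.01, -0.0023 and -0.01 on the log2 scale. The genes at an unadjusted p under 0.05 numbered 0, 0 and 1. The 1 gene was *Tnfrsf11b*, which encodes osteoprotegerin, at 8.73 to 12.5 CPM in Jrt;Sost-het, 9.95 to 20.2 CPM in Jrt;Sost-ko and 8.37 to 14.9 CPM in WT mice. Jrt;Sost-ko mouse 4 lay within the range of the Jrt;Sost-het mice and the other 3 above it. The log2 difference was 0.57 (SE 0.21), with an unadjusted p of 0.0269 and an edgeR adjusted p of 0.901, in a comparison in which 5.02% of all genes had an unadjusted p under 0.05. *Tnfsf11* differed by 0.13 (SE 0.27, edgeR adjusted p = 0.945) in the same comparison. Against WT, the medians of the 3 lists lay between -0.04 and -0.0085, and the unadjusted count was 0 for each list in both comparisons.

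Markers of other cell types moved with the 10 genes in part. For each list the mean log2 CPM of its genes was set against the score over the 12 mice. Values without the 2 farthest mice leave out those farthest from the median of that list, which differ between lists. Cartilage markers had r = 0.699 (rho 0.406), and 0.261 without the 2 farthest mice, with 8 of 8 genes positively related. The summed cartilage markers were highest in Jrt;Sost-het mouse 1 and WT mouse 4, and lowest in WT mouse 2 at 84.6 CPM. Neutrophil markers had r = -0.57 (rho -0.37), with 0 of 10 genes positively related and -0.53 without the 2 farthest mice. The sums of the neutrophil markers ran from 16457 CPM in WT mouse 4 to 30607 CPM in WT mouse 2. Osteoblast markers had r = 0.525 (rho 0.322), with 8 of 8 genes positively related. This r was 0.491 without the 2 farthest mice and 0.730 with group means removed. The sums of the osteoblast markers ran from 22605 CPM in WT mouse 2 to 69160 CPM in Jrt;Sost-ko mouse 3. Muscle markers had r = 0.444, endothelial 0.561, epidermal 0.374 and osteocyte markers 0.447, and each fell to 0.197 or below without the 2 farthest mice. Erythroid markers had r = -0.15, and -0.53 without the 2 farthest mice, with 0 of 8 genes positively related. Macrophage (0.170) and B cell markers (-0.07) had r of 0.010 and -0.19 without the 2 farthest mice of each list. No gene of any list was at 0 in every mouse. The part of these tissues in the variation of the 10 genes was not tested.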

How the data were processed

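RNA-seq counts of 12 tibia shafts were analysed. Per the labels and the paper, STAR was used by the authors for alignment of the paired reads to GRCm38; the submitters' processing notes also name bcl2fastq 2.20, Cufflinks, Cuffdiff and DESeq. The counting tool, its annotation release and its strand setting are not given in the sources used here. The deposited matrix holds raw, unnormalised counts for 47069 Ensembl genes; the deposited tables of fold changes and p-values hold the authors' own comparisons and were not used. The labels give no batch.

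Each pair of groups (8 mice) was fitted in R 4.3.3 with edgeR 4.0.16 (filterByExpr, TMM, glmQLFit, glmQLFTest, Benjamini–Hochberg, threshold 0.05). CPM were TMM-normalised over the 12 libraries, and log2 CPM used a prior count of 2. Exon lengths and positions came from GENCODE M21, which held 98.8% of the identifiers. The 6 comparisons of paralog shares used exact two-sided permutation tests (SciPy 1.17.1, 70 arrangements). Alternatives were DESeq2 1.42.0 and its size factors, limma-voom (limma 3.58.1) with sample weights, other filters, 1 fit of all mice, library sizes without neutrophil, erythroid and muscle genes, and fits without single mice or pairs of mice. The scripts were checked on simulated data in which 200 genes were changed.

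The genes named are the 10 members, fixed pathway genes, list genes with an adjusted p under 0.05, the 10 genes most like the members (1 of which is not reported here) and those most like each member; *Atp6v1a*, *Prdm1*, *Fcer1g*, *Irf8* and *6530413G14Rik* were named after their values were seen. The members and the 14 lists were chosen with earlier results of these data known.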

Additional observations from a re-analysis of the deposited data

Results flagged for a closer look

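In the Jrt;Sost-het group, mouse 1 stood apart from the other 3 mice for 2 of the 10 genes by Dixon's criterion at the 95% level, which compares the gap to the nearest mouse with the range of the group. *Acp5* was 935 CPM in this mouse against 450.1 to 529 CPM in the others, and *Ocstamp* was 11 CPM against 3.85 to 4.93 CPM. The criterion was applied to 36 groups of 4 mice (the 10 genes and the 2 paralog shares in 3 groups), and chance alone marks about 1 in 20.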

How the results depend on the processing

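The 10 genes gave 0 calls under each alternative run in each comparison, and the smallest adjusted p of any of them was 0.452 (*Tcirg1*, Jrt;Sost-het against WT). No paired analysis was possible because the mice were numbered in the order of the labels, which pairs no animals. Of 480 values of single genes under alternatives, 72 changed sign, 42 of them when 1 mouse was left out. The cause of these changes was not tested. The 19 to 77 counts per mouse limit what can be said of *Calcr*.

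Leaving out each mouse in turn, the median log2 difference of the 10 genes ranged from -0.20 to 0.12 (Jrt;Sost-ko compared with Jrt;Sost-het), from -0.27 to 0.20 (Jrt;Sost-het against WT) and from -0.31 to 0.13 (Jrt;Sost-ko against WT). Without WT mice 3 and 4, an alternative chosen after seeing the data, the medians against WT were 0.35 and 0.17. The d2 share differed by -2.94 to 0.387 points (Jrt;Sost-ko compared with Jrt;Sost-het) and by -5.54 to 0.948 points (Jrt;Sost-het against WT), and the a3 share by -0.657 to 2.16 points (Jrt;Sost-ko against WT).

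For Jrt;Sost-ko compared with Jrt;Sost-het, values that changed sign were 0.0015 for *Ctsk* without a filter on low counts, and 0.0050 for *Acp5*, 0.20 for *Calcr* and 0.044 for *Ocstamp* with limma-voom. With each mouse left out in turn the log2 difference ranged from -0.17 to 0.24 for *Acp5*, -0.19 to 0.14 for *Ctsk*, -0.50 to 0.37 for *Calcr*, -0.48 to 0.0998 for *Oscar*, -0.24 to 0.18 for *Dcstamp*, -0.21 to 0.39 for *Ocstamp* and -0.23 to 0.061 for *Atp6v0d2*.

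For Jrt;Sost-het against WT, *Clcn7* was -0.0017 with DESeq2's size factors, -0.0020 with DESeq2 and -0.0010 without a filter. With limma-voom *Acp5* was 0.017, *Ctsk* 0.082, *Mmp9* 0.0021 and *Dcstamp* 0.0021. Without WT mice 3 and 4 *Acp5* was 0.39, *Ctsk* 0.45, *Mmp9* 0.035, *Oscar* 0.37, *Dcstamp* 0.32, *Ocstamp* 0.42 and *Atp6v0d2* 0.16. Without Jrt;Sost-het mouse 1 and WT mouse 4, also chosen after seeing the data, *Ctsk* was 0.10, *Calcr* -0.016 and *Clcn7* -0.018. With each mouse left out in turn the range was -0.37 to 0.23 for *Acp5*, -0.24 to 0.26 for *Ctsk*, -0.10 to 0.036 for *Mmp9*, -0.54 to 0.14 for *Oscar*, -0.37 to 0.24 for *Dcstamp*, -0.63 to 0.26 for *Ocstamp*, -0.39 to 0.012 for *Atp6v0d2* and -0.061 to 0.037 for *Clcn7*.

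For Jrt;Sost-ko against WT, limma-voom gave 0.016 for *Acp5*, 0.060 for *Ctsk* and 0.00017 for *Ocstamp*. Without WT mice 3 and 4 *Acp5* was 0.31, *Ctsk* 0.43, *Oscar* 0.054, *Dcstamp* 0.24, *Ocstamp* 0.37 and *Atp6v0d2* 0.032. With each mouse left out in turn the range was -0.37 to 0.17 for *Acp5*, -0.25 to 0.26 for *Ctsk*, -0.45 to 0.17 for *Dcstamp*, -0.55 to 0.22 for *Ocstamp* and -0.0016 to 0.11 for *Tcirg1*.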
